A study of Mus musculus with 6 samples.

Results

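Subcutaneous and visceral white fat come from different parts of the embryonic mesoderm, and adult fat cells and their fibroblast-like precursors keep a set of developmental transcription factors on according to where they sit. In the mouse, the T-box factor Tbx15, the LIM homeobox factor Lhx8 and the homeobox factors Shox2 and En1 are known from subcutaneous fat. The basic helix-loop-helix factor Tcf21 and the zinc finger factor Wt1 are known from visceral fat, and Wt1 also marks the mesothelium, the flat epithelium that covers organs in the body cavity. The orphan nuclear receptor Nr2f1 and the zinc finger factor Gata6 pattern many tissues, and Gata6 is also known from macrophages of the body cavity. These 8 genes, of 56980 genes listed in the count tables, were followed in 7562 adipocyte nuclei, 1347 nuclei of fibro-adipogenic progenitors (FAPs, the fibroblast-like cells of fat) and 2044 mesothelial nuclei. The genes were chosen by name, with their depot pattern in these data already known, so that depot differences of the 8 genes are given as a description without a test.

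Nuclei of white fat were sequenced in 6 libraries, 2 in each of 3 groups. The mice were female C57BL/6J, and no genetic change or treatment was named for any group. Inguinal fat stands for the subcutaneous depot (SAT) and was taken at ages of 2 and 24 months. Gonadal fat stands for the visceral depot (VAT) and was used here at the older age only. The older age is 24 months in the labels, which is used throughout, and 26 months in the study's text. By the study's text both depots came from 2 mice per age, whereas the labels do not say which libraries share a mouse, so the p-values measure the spread between these libraries only.

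The libraries held 8061862 to 16226690 UMIs (unique molecular identifiers, which count captured RNA molecules), and 27074 of 50859 barcodes were kept as nuclei, with medians of 1380 to 1878 UMIs per nucleus. No pair of libraries shared more than 0.769% of the barcodes of the smaller library. All 8 listed adipocyte markers were detected in the adipocyte nuclei of every library, as were all 10 FAP markers in the FAP nuclei and all 9 mesothelial markers in the mesothelial nuclei. The second VAT library stood apart from the rest. It held 662 ovarian steroidogenic and 163 oviduct or multiciliated nuclei, of which no other library held any, together with 705 nuclei of an unnamed cluster led by Ovgp1, an oviduct gene, 1782 mesothelial nuclei, 158 adipocyte nuclei and 32 FAP nuclei. The first VAT library held 262 mesothelial, 2940 adipocyte and 605 FAP nuclei. The summed level of the ovarian steroidogenic markers in adipocyte nuclei was 172 CPM (the UMIs of a gene in a class, scaled to a class total of 1000000 UMIs) in the second VAT library and 7.79 CPM in the first, and that of the oviduct or multiciliated markers was 181 and 29.7 CPM. Their part in the values of VAT was not tested, and VAT values are therefore given for each library. No SAT nucleus was named mesothelial, so mesothelial levels were available for VAT at 24 months only.

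On GRCm39, as annotated in GENCODE release M39, Tbx15 (ENSMUSG00000027868) lies at chr3:99147697-99294185 on the plus strand, and Lhx8 (ENSMUSG00000096225) and Shox2 (ENSMUSG00000027833) lie at chr3:154011931-154036296 and chr3:66879058-66889284 on the minus strand of the same chromosome. En1 (ENSMUSG00000058665) lies at chr1:120530108-120535721 on the plus strand, Tcf21 (ENSMUSG00000045680) at chr10:22692803-22696073 on the minus strand, Wt1 (ENSMUSG00000016458) at chr2:104956625-105003961 on the plus strand and Nr2f1 (ENSMUSG00000069171) at chr13:78337092-78348578 on the minus strand. The remaining gene is Gata6 (ENSMUSG00000005836). All 8 are protein-coding, and 6 of them overlap a gene on the opposite strand, for which the strand setting of the authors' counting is not given in the sources used here. Reads of Wt1 and its antisense partner Wt1os could therefore not be told apart with certainty, nor those of Gata6 and Gata6os, Nr2f1 and A830082K12Rik, Shox2 and Rsrc1, or Tcf21 and Gm10824. Counts given to the partner were 2326 UMIs for Wt1os beside 4360 for Wt1 in mesothelial nuclei, and 255 UMIs for A830082K12Rik beside 150 for Nr2f1 in adipocyte nuclei. The partner Gm43120 of Tbx15 held 3 UMIs in all adipocyte nuclei beside 489 for Tbx15, and Gm10824 held 5 UMIs in all FAP nuclei beside 82 for Tcf21.

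The start regions of 5 of the 8 genes were found in the RefSeq promoter table (assembly GRCm38.p6), and the bases before the annotated GRCm39 gene start are shown for the SAT factors among them and for Tcf21, so that both sides of the depot contrast can be seen. They are printed 5′ to 3′ on the gene's strand, with CG dinucleotides in capitals, since start regions of mammalian genes differ widely in CG density. Each was matched exactly to GRCm39, and bases inside an annotated exon were left out. The printed stretches are chr3:154036297-154036447 for Lhx8, chr3:66889285-66889354 for Shox2, chr1:120529966-120530107 for En1 and chr10:22696074-22696126 for Tcf21.
Lhx8: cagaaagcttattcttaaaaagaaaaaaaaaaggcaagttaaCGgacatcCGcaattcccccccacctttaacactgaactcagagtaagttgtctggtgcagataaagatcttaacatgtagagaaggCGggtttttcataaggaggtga
Shox2: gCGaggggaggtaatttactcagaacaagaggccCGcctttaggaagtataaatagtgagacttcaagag
En1: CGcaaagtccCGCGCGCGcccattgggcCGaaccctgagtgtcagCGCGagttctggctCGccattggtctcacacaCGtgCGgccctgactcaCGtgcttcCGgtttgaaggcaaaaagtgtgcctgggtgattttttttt
Tcf21: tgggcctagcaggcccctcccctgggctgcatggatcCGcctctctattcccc
In the whole 250-base windows of the RefSeq table, En1 held 19 CG dinucleotides, Shox2 11, Tcf21 5 and Lhx8 4, with a median of 6 over all 32851 windows. Fewer CG dinucleotides than in En1 were found in 80.3% of all windows, against 37.8% for Lhx8. Lhx8 and Shox2 thus lay on either side of the median and of Tcf21.

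**Figure D1:**
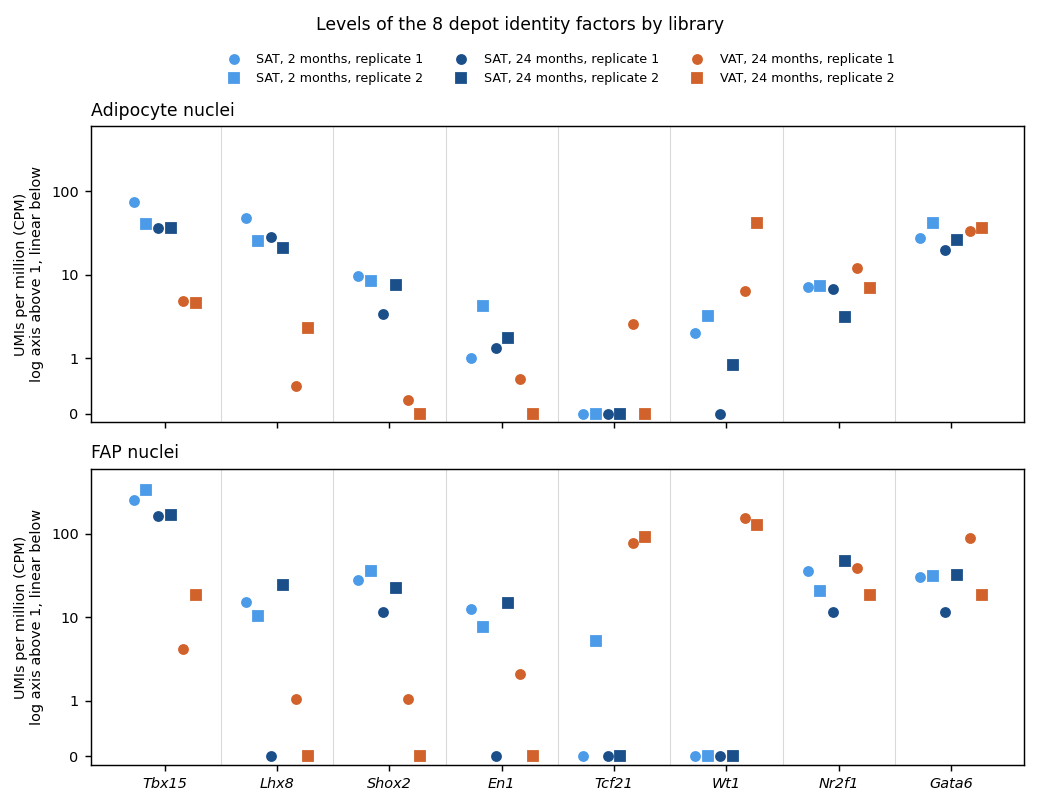
Level of each of the 8 genes in adipocyte nuclei (top) and FAP nuclei (bottom), in CPM, on an axis that is logarithmic above 1 CPM and linear below. Each point is 1 library, coloured by depot and age. Tbx15 and Shox2 sit lower in VAT in both classes and Lhx8 in adipocytes, Tcf21 and Wt1 sit at or near 0 in SAT FAPs and at 79.0 to 155 CPM in VAT FAPs, and Gata6 is found in both depots.

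At 24 months, 7 of the 8 genes lay outside the range of the other depot in adipocyte nuclei, that is, both VAT libraries lay on one side of both SAT libraries. Of all 18933 genes with at least 10 UMIs in these libraries, 33.9% did so by the same rule, 18.4% with VAT lower and 15.5% with VAT higher. Tbx15, Lhx8, Shox2 and En1 were lower in VAT, and Wt1, Nr2f1 and Gata6 were higher in VAT. In FAP nuclei 4 of the 7 genes with at least 10 UMIs did not overlap, beside 31% of 11641 genes, of which 15.9% were lower and 15.1% higher in VAT. Tbx15 and Shox2 were lower and Tcf21 and Wt1 higher in VAT FAPs, and En1, with 8 UMIs, was not counted. Because the genes were chosen for this pattern, nothing is read from these counts, and the levels themselves follow by gene.

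Tbx15, which acts in limb and skin mesenchyme and in fat, gave the most UMIs of the 4 subcutaneous factors in both classes. In FAP nuclei its level was 254 and 340 CPM in SAT at 2 months, 165 and 171 CPM in SAT at 24 months, and 4.21 and 18.5 CPM in VAT. The last of these values rests on 1 UMI in 32 nuclei. All 4 SAT libraries were above both VAT libraries. The group means were 297 ± 61.1, 168 ± 4.20 and 11.4 ± 10.1 CPM (SD, n = 2 libraries). Pooled over the libraries of a group, FAP nuclei at 24 months held 34.1 times as much Tbx15 in SAT as in VAT (exact 95% interval 14.0 to 108, counting error only). In adipocyte nuclei the level was 74.5 and 40.2 CPM in SAT at 2 months, 36.0 and 36.5 CPM in SAT at 24 months, and 4.82 and 4.59 CPM in VAT. Here too the depots did not overlap, and the pooled ratio was 7.57 (5.43 to 10.8). The adipocyte means of 57.4 ± 24.2 and 36.3 ± 0.332 CPM in SAT (SD, n = 2) were below those of SAT FAPs, and the mean of 4.71 ± 0.164 CPM in VAT adipocytes did not differ from that of VAT FAPs beyond the spread.

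The VAT adipocyte values of Tbx15 did not exceed what was counted in immune nuclei of the same libraries, 5.69 and 8.44 CPM. Immune nuclei are not known to express Tbx15, and they serve here as the level that free RNA captured with the nuclei can give. Tbx15 in immune nuclei of SAT was 4.10 to 9.62 CPM, so that SAT FAPs and SAT adipocytes stood above it and VAT FAPs and VAT adipocytes could not be told from it. With every nucleus thinned to 1000 UMIs, 20.2% (exact interval 15.01 to 26.2%) and 27.6% (21.4 to 34.4%) of SAT FAP nuclei at 2 months held a Tbx15 UMI. The shares were 8.62% (2.86 to 19.0%) and 12.3% (8.49 to 17.2%) in SAT at 24 months and 0.496% and 3.12% in VAT. Without thinning, the SAT shares were 18.9 to 37.2%. In immune nuclei the thinned share was 0.136 to 1.00% over the 6 libraries.

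**Figure D2:**
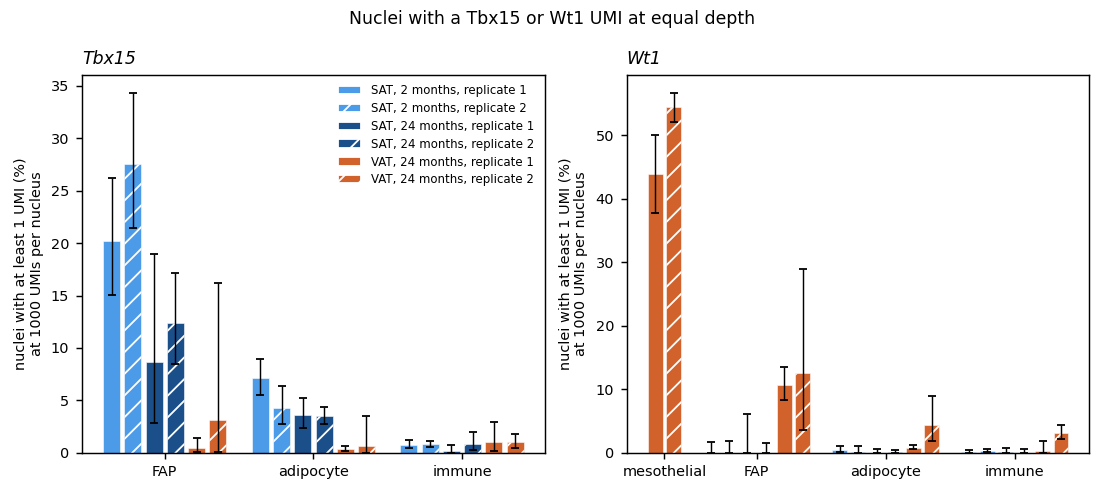
Share of nuclei with at least 1 UMI of Tbx15 (left) or Wt1 (right) after every nucleus was thinned to 1000 UMIs. Each bar is 1 library, bars start at 0, and the lines are exact 95% binomial intervals, which cover counting error only. Tbx15 was found in 8.62 to 27.6% of SAT FAP nuclei, and Wt1 in 43.9 and 54.4% of VAT mesothelial nuclei.

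Tbx15 was not confined to adipocytes and FAPs. A cluster of 290 nuclei, led by Pcdh15, Ccl21a, Cxcl13, Ccl19 and Cr2 and left unnamed, held 237 and 343 CPM in SAT at 2 months and 420 and 421 CPM in SAT at 24 months. These levels were close to or above those of FAP nuclei in the same libraries. The naming rule, tightened after the clusters had been seen, took Ccl21a, Ccl19, Cxcl13 and Cr2 among leading genes as a sign of lymph node. Whether these nuclei came from lymph node rather than fat was not tested. Lhx8 in that cluster was 19.98 to 117 CPM on 2 to 7 UMIs per library, and Nr2f1 was 46.8 to 161 CPM. The 24 skeletal muscle nuclei of the second SAT library at 24 months held 14 Tbx15 UMIs (327 CPM) and no UMI of the other 7 genes. In epithelial nuclei of SAT Tbx15 was 6.45 to 8.74 CPM, within the range of immune nuclei.

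Lhx8, known from craniofacial and forebrain development and as a marker of brown-type and subcutaneous fat cells, gave more UMIs in adipocytes than in FAPs in every SAT library. The adipocyte class was also the larger in each of them. At 2 months the level of Lhx8 was higher in adipocytes in both libraries, although in the second the exact intervals of the classes overlapped. At 24 months this did not hold in the second library, with 21.1 CPM in adipocytes and 24.7 CPM in FAPs. Its adipocyte level was 48.1 and 25.4 CPM in SAT at 2 months, 28.0 and 21.1 CPM in SAT at 24 months, and 0.494 and 2.29 CPM in VAT. All SAT libraries were above both VAT libraries, and the pooled ratio at 24 months was 38.5 (16.2 to 120) on 163 against 5 UMIs. Of these 5, 4 came from the first VAT library, so the second VAT value rests on 1 UMI. Immune nuclei held 0 to 1.92 CPM. In FAP nuclei Lhx8 was 15.2 and 10.3 CPM in SAT at 2 months and 0 and 24.7 CPM in SAT at 24 months, on 10 UMIs or fewer per library. The library at 0 held 58 FAP nuclei, which allows up to 35.3 CPM for a count of 0. VAT FAP nuclei held 1 UMI in all. The FAP libraries at 24 months overlapped, and the pooled SAT to VAT ratio was 20.5 with a wide interval (2.92 to 891), on 10 against 1 UMIs.

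Shox2, a homeobox factor of the proximal limb, gave 113 UMIs over the 3 classes. In FAP nuclei it was 27.9 and 36.1 CPM in SAT at 2 months, 11.8 and 22.3 CPM in SAT at 24 months, and 1.05 and 0 CPM in VAT. In adipocyte nuclei it was 9.62 and 8.47 CPM, 3.34 and 7.51 CPM, and 0.247 and 0 CPM in the same order. Neither class overlapped between depots, with 48 against 2 UMIs in adipocytes and 10 against 1 in FAPs at 24 months. The zeros of the second VAT library allow up to 6.88 CPM in its 158 adipocyte nuclei and 55.5 CPM in its 32 FAP nuclei, so that the depot contrast in FAPs rests on the first. Immune nuclei held 0 to 2.60 CPM over the 6 libraries, and 3 of the 4 SAT FAP values stood above them. The fourth, 11.8 CPM, rests on 1 UMI in 58 nuclei. Epithelial nuclei held no Shox2 UMI.

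En1, the engrailed homeobox factor of trunk dermis and hindbrain, gave the fewest UMIs of the 8, with 41 over all 3 classes. SAT FAP nuclei held 12.7 and 7.74 CPM at 2 months and 0 and 14.8 CPM at 24 months, and VAT FAP nuclei held 2.11 and 0 CPM. In adipocyte nuclei En1 was 1.01 to 4.24 CPM in SAT and 0.618 and 0 CPM in VAT. The pooled interval of the adipocyte ratio at 24 months, 0.929 to 10.3, included 1. It rests on 12 against 5 UMIs, and the libraries did not overlap. In FAPs the pooled ratio was 6.16 (1.101 to 62.4) on 6 against 2 UMIs, although there the libraries overlapped. Both intervals cover counting error only and are not a test between the depots.

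Tcf21, a factor of coelomic and visceral mesenchyme, was the mirror image in FAPs. VAT FAP nuclei held 79.0 and 92.5 CPM, on 75 and 5 UMIs. SAT FAP nuclei held 0, 5.16, 0 and 0 CPM, with 2 UMIs in all 4 libraries. At 24 months the SAT FAP nuclei held none, and against the floor of 3 counts over the group the VAT level was at least 13.0-fold higher. In adipocyte nuclei no SAT library held a Tcf21 UMI. The first VAT library held 21 UMIs there (2.60 CPM, exact interval 1.61 to 3.97) and the second 0, among 158 nuclei, which allows up to 6.88 CPM. Immune nuclei of the first VAT library held 0 UMIs, which allows 5.69 CPM, and those of the second held 8 UMIs (5.20 CPM), so the adipocyte level was not separable from this background. Tcf21 also occurred in VAT smooth muscle or pericyte nuclei, at 65.6 and 209 CPM on 3 and 42 UMIs. All but 1 of these VAT nuclei lay in 1 cluster, whose name was less firm than that of FAPs. At a resolution of 1.0 and with doublets removed the matching cluster was left unnamed, with mean log2 folds of 2.02 and 2.03 for the smooth muscle or pericyte markers and 1.80 and 1.81 for the FAP markers. In the same cluster, whose leading genes include Kcnt2, Cacna1c and Myh11, the 27 nuclei of the second SAT library at 24 months held no Tcf21 UMI, which allows up to 71.5 CPM, so no depot contrast can be read there.

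Wt1, which controls the formation of kidney, gonad and mesothelium, was highest in VAT mesothelial nuclei, at 668 and 954 CPM, a mean of 811 ± 202 (SD, n = 2). In the second library 1481 of the 1782 mesothelial nuclei lay in a cluster of that library only. In the cluster that both VAT libraries shared, Wt1 was 668 and 720 CPM. A Wt1 UMI was found in 43.9% (37.8 to 50.1%) and 54.4% (52.1 to 56.8%) of all VAT mesothelial nuclei at 1000 UMIs, and in 58.0 and 72.4% without thinning. VAT FAP nuclei held 155 and 130 CPM, on 147 and 7 UMIs. No FAP nucleus of the 4 SAT libraries held a Wt1 UMI, and against the floor of 3 counts the VAT level at 24 months was at least 25.0-fold higher. The summed mesothelial markers in VAT FAP nuclei were 182 and 130 CPM, beside 5577 and 3983 CPM in mesothelial nuclei of the same libraries. The part of mesothelial RNA in the Wt1 level of VAT FAPs was not tested.

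Wt1 in VAT adipocyte nuclei was 6.30 and 41.3 CPM, beside 2.03, 3.18, 0 and 0.873 CPM in SAT. Immune nuclei of the same VAT libraries held 7.59 and 37.7 CPM. The adipocyte levels did not exceed the immune levels beyond their exact intervals, and the source of the Wt1 counted in either class was not tested. The gap between the VAT libraries followed the same order in both classes, with more Wt1 in the library that held 1782 mesothelial nuclei. Endothelial nuclei held 11.8 and 159 CPM in VAT and none in SAT. In VAT smooth muscle or pericyte nuclei Wt1 was 306 and 348 CPM, and in the ovarian steroidogenic and oviduct or multiciliated nuclei of the second VAT library 267 and 317 CPM. The unnamed cluster led by Ovgp1 held 333 CPM in that library. The ovarian steroidogenic value joined a cluster led by Cyp11a1 and Lhcgr, at 56.3 CPM, with another led by Kctd14 and Gm20629, at 599 CPM.

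Gata6 was found in adipocyte, FAP and endothelial nuclei of both depots. In VAT mesothelial nuclei it was 266 and 213 CPM, a mean of 239 ± 37.2 (SD, n = 2), and 266 and 311 CPM in the cluster that both libraries shared. In VAT smooth muscle or pericyte nuclei it was 219 and 114 CPM, on 10 and 23 UMIs. In adipocyte nuclei it was 27.9 and 41.3 CPM in SAT at 2 months, 20.02 and 26.2 CPM in SAT at 24 months, and 33.1 and 36.7 CPM in VAT. VAT exceeded SAT at 24 months in both libraries, by a pooled ratio of 1.34 (1.11 to 1.62), but lay within the range of SAT at 2 months. In FAP nuclei it was 30.5, 30.9, 11.8 and 32.2 CPM in SAT and 88.4 and 18.5 CPM in VAT, and the depots overlapped. The lower VAT value rests on 1 UMI. Endothelial nuclei held 17.1 to 200 CPM over the 6 libraries, and immune nuclei 0.962 to 17.1 CPM. The immune level was highest in the first VAT library, where the summed cavity macrophage markers in immune nuclei were 1812 CPM, against 50.04 to 210 CPM in the other 5 libraries. The summed adipocyte and FAP markers in immune nuclei were also highest there, at 3088 and 1360 CPM, against at most 1774 and 1334 CPM in the others. The part of each in the Gata6 level was not tested.

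Nr2f1 did not separate the depots in FAPs. In FAP nuclei it was 35.5, 20.6, 11.8 and 47.0 CPM in SAT and 38.95 and 18.5 CPM in VAT, with a pooled ratio of 1.08 (0.596 to 1.90) at 24 months. In adipocyte nuclei it was 7.09, 7.41, 6.67 and 3.14 CPM in SAT and 12.1 and 6.88 CPM in VAT. The pooled ratio of VAT to SAT at 24 months was 3.06 (1.99 to 4.83, counting error only), with 98 of the 101 VAT UMIs from the first library. The lower VAT value rests on 3 UMIs and lay within the range of the 4 SAT libraries. In mesothelial nuclei Nr2f1 was 0 and 3.07 CPM (exact interval of the latter 1.63 to 5.24), beside 3.79 and 2.60 CPM in immune nuclei (0.708 to 6.65 for the latter), and the intervals overlapped. By class, its highest levels outside the unnamed SAT cluster were 126 CPM in oviduct or multiciliated nuclei and 94.5 CPM in smooth muscle or pericyte nuclei, both in the second VAT library. Within the smooth muscle or pericyte cluster that both depots shared, Nr2f1 was 167 CPM in the second SAT library at 24 months, on 7 UMIs, and 21.9 and 95.4 CPM in VAT.

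**Figure D3:**
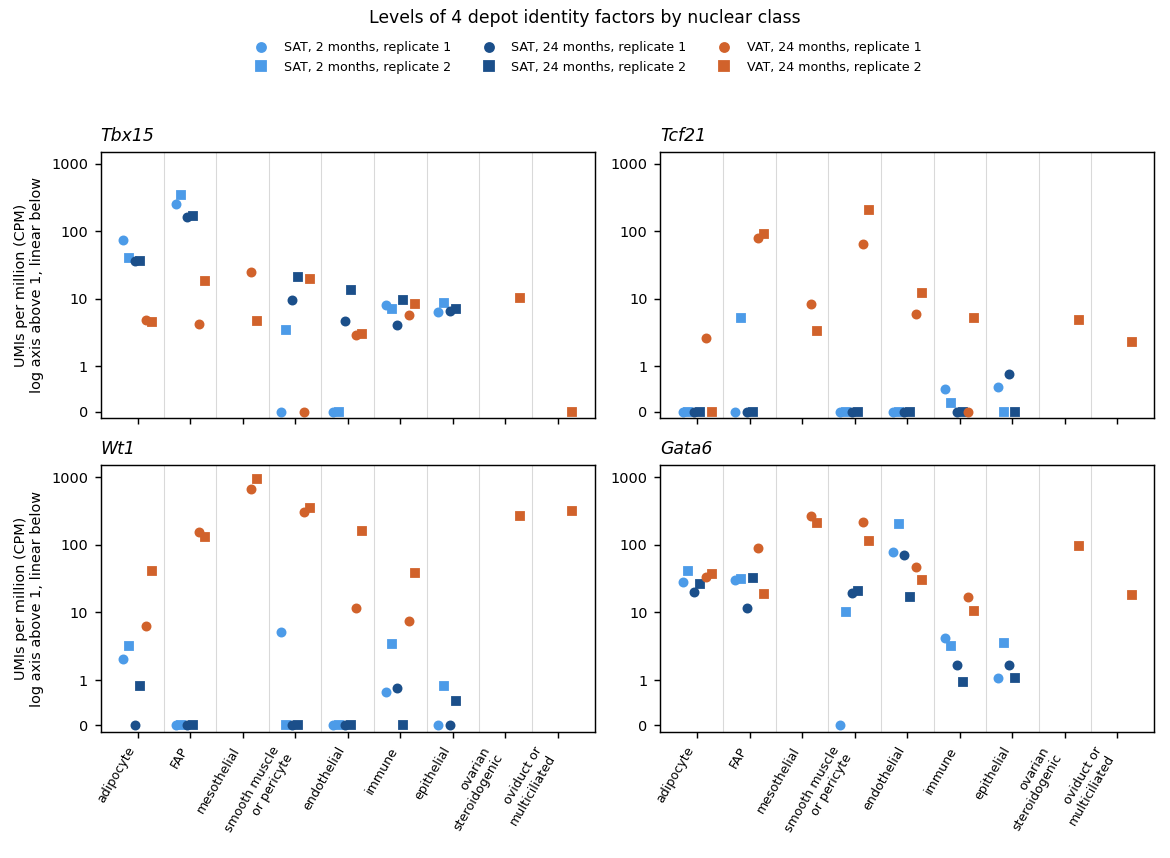
Level of Tbx15, Tcf21, Wt1 and Gata6 in 9 nuclear classes, in CPM, on an axis that is logarithmic above 1 CPM and linear below. Each point is 1 library with at least 20 nuclei of the class. Unnamed clusters and skeletal muscle nuclei are not plotted. Among the plotted classes, Tbx15 peaks in SAT FAPs, Tcf21 in VAT FAPs and VAT smooth muscle or pericyte nuclei, and Wt1 in VAT mesothelial nuclei at 668 to 954 CPM, where Gata6 lies at 213 to 266 CPM.

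The mesothelial nuclei fell into 3 clusters in each of which both Wt1 and Gata6 were found. A cluster led by Il1rapl1, C3 and Sntg1 held 262 nuclei of the first VAT library and 273 of the second. In it Wt1 was 668 and 720 CPM, and Gata6 was 266 and 311 CPM, so that the VAT libraries were close once the same cluster was compared. The other 2 clusters came from the second VAT library only. The larger, with 1481 nuclei led by Upk1b, Plxna4 and Lgr5, held 990 CPM of Wt1 and 200 CPM of Gata6, and the smaller, with 28 nuclei, 719 and 176 CPM. The heart and gonad factor Gata4 was 750 and 527 CPM in these clusters and 35.8 and 21.5 CPM in the shared one, and the LIM factor Lhx9 was 528 and 543 CPM against 0 and 5.87 CPM. Gata4 and Lhx9 were singled out after their values had been seen. The 2 clusters came from the library that also held the ovarian and oviduct nuclei. Whether they are mesothelium of fat was not tested. FAP markers summed to 6277 CPM in the shared cluster of the first VAT library and 2360 CPM in that of the second, where Tbx15 was 25.3 and 3.91 CPM. Over all mesothelial nuclei Lhx8 gave 0 and 3 UMIs, En1 0 and 2, and Shox2 none, beside 12 and 20 UMIs of Tbx15.

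Within FAPs, nuclei were separated into Dpp4 progenitors, which are early, multipotent fibroblasts, Col15a1 preadipocytes and a rest that no list named. Tbx15 was found in all 3 at 296, 226 and 208 CPM in SAT, pooled over both ages. This order was not that of single libraries. Dpp4 progenitors held less Tbx15 than Col15a1 preadipocytes in both libraries with at least 20 nuclei of each, 192 against 389.5 CPM in the first at 2 months and 145 against 169 CPM in the second at 24 months. Lhx8 was not counted in 255 SAT Dpp4 progenitors, where 0 allows up to 7.48 CPM by the exact interval. It was 16.8 CPM (6.75 to 34.6) in 225 SAT Col15a1 preadipocytes and 36.1 CPM (19.2 to 61.7) in the 230 others, on 7 and 13 UMIs. Shox2 was 28.4, 45.6 and 5.55 CPM in the same order. This order did not hold in each library either, since the first SAT library at 2 months held no Shox2 UMI in Dpp4 progenitors and 5.93 CPM in the unnamed nuclei. These groups hold libraries in unequal numbers, and nuclei of 1 library are not replicates, so the values are a description. In VAT, 271 Dpp4 progenitors held 98.6 CPM of Tcf21, 157 CPM of Wt1 and 71.7 CPM of Gata6, and 360 unnamed FAP nuclei held 64.1, 150 and 97.1 CPM. The SAT Dpp4 progenitors held 0 UMIs of both Tcf21 and Wt1. Of the 255 SAT nuclei, however, 73 and 136 came from the libraries at 2 months and 30 from the second at 24 months, and 269 of the 271 VAT nuclei came from 1 library, so that depot and age are mixed in this subtype.

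To ask whether the factors changed with age, SAT at 24 months was compared with SAT at 2 months by edgeR's quasi-likelihood test on UMI sums per library. The adipocytes of the ages lay in different clusters. Of the 945 and 537 adipocyte nuclei at 2 months, 921 and 533 were in 1 cluster, of which neither SAT library at 24 months held 20 nuclei, and those at 24 months were spread over 5 others. In adipocyte nuclei 13.7% of 13163 genes tested were called at an adjusted p under 0.05, and in FAP nuclei 1.27% of 8504. None of the 8 genes was called in either class. The filter on low counts passed 6 in each class. In FAPs, however, Wt1 and Tcf21 held 0 and 2 UMIs in SAT and passed through their VAT level, so their age tests say nothing, and Wt1 in adipocytes held 12 UMIs in SAT. None of the genes tested had an unadjusted p under 0.05 in edgeR or in DESeq2, which bears on Tbx15, Shox2, Nr2f1 and Gata6 in both classes and on Lhx8 in adipocytes. DESeq2 called none of them either, with adjusted p-values missing for 1 gene in adipocytes and 4 in FAPs.

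Tbx15 had the lowest adjusted p in both classes. Its log2 fold change in FAP nuclei was -0.80 (SE 0.41, edgeR adjusted p = 0.419), and both libraries at 24 months lay below both at 2 months. In adipocyte nuclei it was -0.53 (SE 0.33, edgeR adjusted p = 0.312). The first library at 2 months, at 74.5 CPM, set that value, and without it the log2 fold change was 0.0514. For Lhx8 in adipocytes the log2 fold change was -0.47 (SE 0.41, edgeR adjusted p = 0.477), and without the same library it was 0.14. Shox2 gave -0.48 (SE 0.61) in adipocytes and -0.70 (SE 0.90) in FAPs. Gata6 gave -0.36 (SE 0.32) and -0.18 (SE 0.70), and Nr2f1 gave -0.53 (SE 0.63) and 0.41 (SE 0.69), with edgeR adjusted p-values of 0.503 to 0.9499. Wt1 in adipocytes, on 12 UMIs, gave -1.71 (SE 1.30, edgeR adjusted p = 0.412). With standard errors of 0.32 to 1.30 on the log2 scale, the data do not show that the levels stayed equal.

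**Figure D4:**
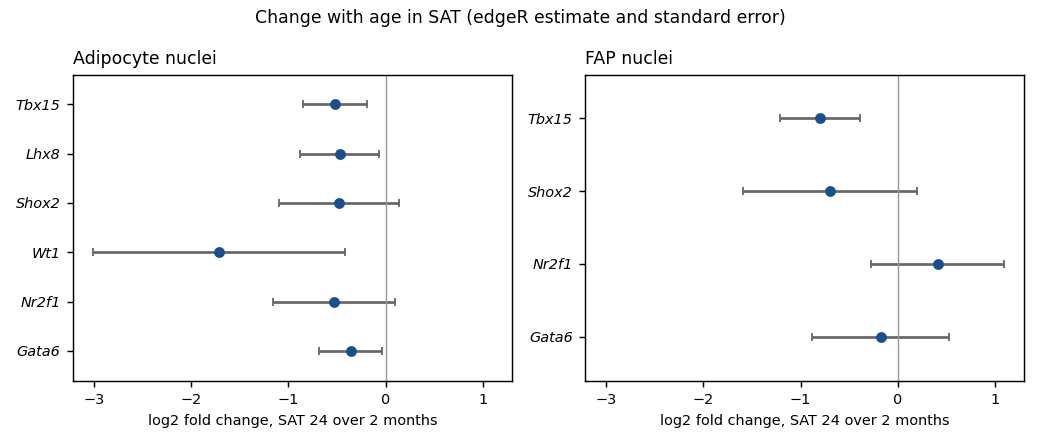
Log2 fold change of SAT at 24 months over SAT at 2 months, as estimated by edgeR (points) with its standard error (lines), for the genes that passed the filter on low counts in adipocyte and FAP nuclei. Tcf21 and Wt1 in FAPs are left out because SAT held 2 and 0 UMIs of them. No gene passed the test, and Wt1 in adipocytes rests on 12 UMIs.

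By CPM alone, 5 of the 7 genes with at least 10 UMIs were lower in both libraries at 24 months than in both at 2 months in adipocytes, and none was higher. Among all 18538 genes 41.4% were lower and 18% higher by this measure, and with library size as the only scaling the median log2 fold change over all tested genes was -0.18. After TMM scaling, 2 of the 7 (Shox2 and Wt1) were lower, beside 33.8% of all genes. In FAPs 2 of 6 genes (Tbx15 and Shox2) were lower under both scalings, beside 28.4 and 26.2% of all genes. The count in adipocytes thus depended on the scaling. The split of all calls did too, with 887 higher and 922 lower after TMM and 662 higher and 1355 lower with library size only.

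Relatives and partners of the 8 genes were taken from 7 lists with 74 genes, chosen with earlier results of these data known. Between depots at 24 months, edgeR called 0 of 34 tested list genes in adipocytes (5 at an unadjusted p under 0.05, and 0 by DESeq2) and 1 of 35 in FAPs (6 unadjusted), beside 0.129 and 0.141% of all genes. The 1 gene was Cyp26b1, the enzyme that breaks down retinoic acid. In FAP nuclei it was 17.8 and 33.5 CPM in SAT at 2 months, 212 and 81.6 CPM in SAT at 24 months, and 3.16 and 0 CPM in VAT. Its log2 fold change between VAT and SAT was -5.28 (SE 0.88, edgeR adjusted p = 0.0152), and both VAT libraries lay below all SAT libraries. Without the first VAT library, which held 605 of the 637 VAT FAP nuclei, the call was lost (edgeR adjusted p = 0.34, the highest of 16 alternatives, of which the lowest was 4.05e-05). It was also lost with a replicate block and with Harmony correction, and DESeq2 gave no adjusted p for it. The log2 fold change lay between -8.13 and -4.57 in all 16 alternatives, those without the call included.

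With age in SAT, 7 of 34 tested list genes were called in adipocytes, beside 13.7% of all genes, and 0 of 35 in FAPs (6 at an unadjusted p under 0.05 in edgeR, and 0 called by DESeq2). Over the lists the median log2 fold change in adipocytes was 0.0683, beside -0.00154 for all genes. The LIM-only factor Lmo4 rose from 130 and 109 CPM to 321 and 322 CPM, a log2 fold change of 1.59 (SE 0.25, edgeR adjusted p = 0.00176). Of the homeobox factors, Prrx1 (a mesenchymal factor) rose by 1.16 on the log2 scale (SE 0.28, edgeR adjusted p = 0.0193) and Irx3 (linked to fat cell energy use) by 2.21 (SE 0.67, edgeR adjusted p = 0.0481). At 24 months Prrx1 was 78.1 and 70.0 CPM and Irx3 6.01 and 18.9 CPM. The summed FAP markers in these adipocyte nuclei were 2089 and 4537 CPM, beside 2423 and 1678 CPM at 2 months. Their part in the changes was not tested. Of the retinoid pathway, the retinaldehyde dehydrogenase Aldh1a1 rose from 522 and 234 CPM to 1260 and 951 CPM (log2 fold change 1.71, SE 0.37, edgeR adjusted p = 0.0107). The retinaldehyde reductase Dhrs3 rose by 1.00 on the log2 scale (SE 0.29, edgeR adjusted p = 0.0384). The calls of Irx3 and Dhrs3 were lost with library-size scaling, and Irx3 was called in 9 and Dhrs3 in 12 of 17 alternatives. Without the second SAT library at 24 months their log2 fold changes were 1.14 and 0.631, neither of which was called. Without the second SAT library at 2 months none of the 7 genes was called, and without the first, 2 list genes were.

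The other 4 lists held no call in either class or comparison. Their most abundant genes were the T-box factors Tbx3 and Tbx2 in adipocytes and Tbx18 and Tbx3 in FAPs, the E proteins Tcf12 and Tcf4, the zinc finger factors Bnc2 and Zfpm2, and the nuclear receptors Nr2f2 and Nr2f6. In FAP nuclei Zfpm2, a partner of GATA factors, was 437, 426, 883 and 436 CPM in SAT and 1566 and 1555 CPM in VAT, and the depot difference did not pass the test (log2 fold change 1.24, SE 0.46, edgeR adjusted p = 0.677).

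Likeness of pattern was described over the 14 sums of class and library, as Pearson's r of log2(CPM + 10) with 8654 genes at a mean of at least 20 CPM. The sums share libraries and depth, and no test was made. Shox2 was most like Tbx15 (r = 0.947), and also like Cd164 and Colgalt1 (0.923 and 0.916). For Tbx15 the leading genes were Gclc, Gm46329 and Colgalt1 (0.86 to 0.87), and for Lhx8 they were Mgst1, Lrp12 and Acadl (0.815 to 0.855). Shox2 lay below the mean of 20 CPM, so it could not be listed for Tbx15. Wt1 was most like its antisense partner Wt1os (0.991), then Cyp2s1 and Rspo1 (0.973 and 0.966), and Gata6 was most like Gata6os, Gpm6a and Upk3b (0.934 to 0.942), of which the last 2 are mesothelial markers. For Tcf21 the leading genes were Ccdc93, Col6a5 and Phf23 (0.868 to 0.917), and for Nr2f1 they were 2510009E07Rik, Oaf and Adcyap1r1 (0.881 to 0.892). En1 was too rare for the measure.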

How the data were processed

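As the labels and the paper's methods state, the authors prepared Singleron libraries from nuclei, aligned and counted reads with Celescope on GRCm39 (release of Celescope and annotation not given in the sources used here), and deposited raw UMI counts per gene and nucleus, with no normalization. A barcode was kept as a nucleus if it held more than 500 genes and 1000 UMIs, with less than 15% of them mitochondrial. Counts were log-normalized, 1000 variable genes (none of the 8 genes) gave 30 principal components, and a graph of 20 neighbours was clustered with leidenalg 0.10.2 at a resolution of 2.0, and FAPs again at 1.0 (Python 3.11.15, scipy 1.17.1, scikit-learn 1.9.0, igraph 0.11.9). Clusters were named from marker lists (at least 3 markers over 2-fold, mean log2 fold at least 0.5 and 0.5 above the next list), and names are candidates from RNA alone. Harmony correction by library was planned, but it was set aside after its clusters had been seen: it put 378 nuclei of the second VAT library among FAPs, against 32 without it, and named 25 to 58 nuclei per SAT library mesothelial that held almost no mesothelial marker RNA. The rule for names was tightened at the same point. Doublets were kept. Scrublet (scanpy 1.11.5) called 0.0519 to 0.562% of nuclei and is taken as not having worked, so an alternative removed the 2.49 to 5.78% with the highest scores.

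UMIs were summed per library and class with at least 20 nuclei. CPM is UMIs scaled to a sum of 1000000. With R 4.3.3, edgeR 4.0.16 fitted the 3 groups together (TMM, filterByExpr, quasi-likelihood, two-sided, Benjamini-Hochberg per class and comparison, called under 0.05). The script was tested on simulated data. DESeq2 1.42.0 was an alternative. Intervals are exact (Clopper-Pearson for shares, Poisson or conditional binomial for counts) at 95%, and a count of 0 allows 3 counts. Genes were placed with GENCODE release M39, and all 8 matched by Ensembl identifier. Named genes were the 8 genes, list genes called (at most 6 per class, comparison and direction), up to 2 leading genes of lists without a call, and the 3 genes most like each gene with at least 100 UMIs. The 8 genes and all lists were chosen with earlier results of these data known. Mesothelial nuclei could not be compared by age or depot, since no SAT library held any. Some of the list genes counted as called are not reported here by name.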

Additional observations from a re-analysis of the deposited data

Results flagged for a closer look

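Among the 8 depot identity factors, no gene separated by age or by depot in opposite directions in adipocyte and FAP nuclei, and groups of 2 libraries allow no search for outlying libraries. Of the list genes called, Aldh1a1 of the retinoid pathway moved in opposite directions in the classes with age, with both libraries at 24 months on one side of those at 2 months. Its log2 fold change was 1.71 in adipocytes and -0.878 in FAPs, where its levels were 617 and 807 CPM at 2 months and 400 and 369 CPM at 24 months. The FAP value did not pass edgeR's test (adjusted p = 0.404), and the difference between the classes was not tested.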

How the results depend on the processing

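No member was called with age in adipocytes or FAPs under any of the 17 alternatives. For Wt1 and Tcf21 in FAPs, with almost no SAT counts, this says nothing. Harmony, chosen as an alternative after seeing the data, gave 6 of 8 members not overlapping between depots in adipocytes and 5 of 7 in FAPs, beside 34.4 and 35.1% of all genes. Thinning to 1000 UMIs left 4 of 6 in adipocytes, beside 32.9%. Leaving out 1 library at a time gave 5 to 8 in adipocytes and 2 to 6 in FAPs (2 of 5 without the first VAT library, which held nearly all VAT FAP nuclei), but with 1 library in a depot 62.3 to 76.8 and 54.8 to 72.5% of all genes did not overlap, so nothing is read from these counts. Without 1 library, the log2 fold change by age ranged from -0.863 to 0.0514 for Tbx15, -0.812 to 0.138 for Lhx8 and -0.978 to 0.123 for Nr2f1 in adipocytes, and from -1.36 to 0.108 for Gata6 and -1.24 to 0.783 for Nr2f1 in FAPs. The direction turned without the first SAT library at 2 months for Tbx15 and Lhx8, without the second at 24 months for Nr2f1 in both classes, and without the first at 24 months for Gata6. It also turned for Gata6 in FAPs with looser filters on nuclei (0.32).

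The list genes called between depots were 2 without a filter on low counts, 0 with DESeq2 (which left 26 of 35 FAP values without an adjusted p), 0 with Harmony, 0 with the replicate block, and 0 to 1 without 1 library. Those called with age were 11 with looser filters and 0 to 11 without 1 library (0 without the second and 2 without the first SAT library at 2 months, 11 without either VAT library). Of 307 repeats for single genes, 277 kept direction and call, 24 lost the call and 6 turned. Over all genes, calls by age in FAPs were 108, but 231 without a filter, 172 with looser filters, 49 with the replicate block, 33 with DESeq2, 0 with Harmony and 3 to 330 without 1 library. Calls by age in adipocytes were 404 to 2307 without 1 library. Calls by depot in adipocytes were 17, but 155 without a filter, 37 with DESeq2, 30 with the replicate block, 28 with looser filters, 11 with only the libraries compared and 3 to 146 without 1 library, and those in FAPs were 12, but 49 without a filter, 22 with doublets removed, 6 with only the libraries compared, 3 with the replicate block, 2 with Harmony and 3 to 65 without 1 library. With library-size scaling 662 of 2017 calls by age in adipocytes were higher, against 887 of 1809. Causes were not tested. Deviations of libraries with the same number correlated at -0.086 to 0.096, so the numbers were not taken to pair samples. Depth limits En1, Shox2 and Lhx8 in FAPs, with 10 UMIs or fewer in most libraries. It also limits the FAP and adipocyte values of the second VAT library, which held 32 and 158 of these nuclei.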
